A study of Mus musculus with 12 samples.

Results

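The genes described here are 35 lysosomal genes of the mouse corpus callosum, the large tract of myelinated axons between the hemispheres. They encode hydrolases, their activators, membrane proteins and transporters of the lysosome, and Tfeb, a transcription factor of lysosomal genes. They were chosen by gene symbol from a list that leaves out the cathepsins and the proton pump, and 35 of the 35 were found among the 15584 genes of the table. All 35 were also among the 13759 genes that passed the filter on low values and were tested.

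Bulk RNA of corpus callosum was sequenced in 12 libraries, 3 in each of 4 groups. WT Ctrl and WT CPZ are wild-type mice without and with cuprizone, a copper chelator that kills oligodendrocytes and strips axons of myelin. AHR CKO Ctrl and AHR CKO CPZ are mice without the aryl hydrocarbon receptor, a ligand-activated transcription factor, in microglia, again without and with cuprizone. The sources used here do not give the Cre line, the age and sex of the animals, the dose and length of the treatment or whether each library is 1 animal, so p-values measure the spread between libraries, which may be technical. Values are FPKM, in which fragments are divided by gene length and by the size of the library.

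Lysosomes are acidic organelles in which hydrolases break down lipids, glycans and proteins, and membrane proteins hold the acid compartment together and export the products. In white matter, microglia take up myelin debris after demyelination and pass its cholesterol, glycosphingolipids and proteins through this compartment. Inherited loss of many of these enzymes and transporters causes storage disease in the brain. Tfeb binds short palindromic sequences, known as CLEAR elements, in the promoters of many lysosomal genes.

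The libraries summed to between 447156 and 519470 FPKM. Genes listed at 0 numbered 52 to 80 in the AHR CKO libraries, 94 in WT CPZ replicate 2 and 0 in the other WT libraries. The median FPKM was 8.24 to 9.02 in AHR CKO and 8.87 to 9.11 in WT. The reason for these differences was not tested. Those between AHR CKO and WT cannot be told apart from genotype, while WT CPZ replicate 2 differed from the other libraries of its own group. Steps among the lowest values, read from 9 to 31 genes per library, gave a rough depth of 11400000 to 14900000 fragments. Pearson's r of log2(FPKM + 1) ran from 0.972 to 0.993 between libraries of a group and from 0.932 to 0.983 between libraries of different groups. Ahr was listed at 1.41 to 2.57 FPKM in the 12 libraries and did not differ by genotype (limma, adjusted p = 0.937 under cuprizone and 0.971 without), so this RNA of whole tissue does not check the deletion in microglia. Cx3cr1, a microglial receptor whose locus often carries a Cre driver, was 22.6 to 69.4 FPKM in the 6 WT libraries. In AHR CKO it was 1.05, 9.60 and 0.801 FPKM without cuprizone and 1.16, 22.7 and 29.6 FPKM with it, so the libraries of this genotype stood apart among themselves. The 12 oligodendrocyte markers summed to 10294 to 18717 FPKM in WT Ctrl and 3191 to 3864 FPKM in WT CPZ, and 12 of the 12 fell (10 of 12 in AHR CKO). The 6 choroid plexus markers summed to between 43.5 and 3742 FPKM over the 12 libraries, and their part in the results was not tested.

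RefSeq promoter windows of 250 bases before to 50 after the gene start (GRCm38.p6) were matched for 32 of the 35 genes, the others being Npc1, Asah1 and Plbd2. They were searched for CACGTG and TCACGTGA, the core and a longer form of the CLEAR element, and for the palindromic CLEAR consensus of 10 bases. Each is its own reverse complement, so a match counts for both strands, and each longer form contains the shorter. A gene counted if any of its windows matched. CACGTG occurred in 8 of the 32 genes (25%) and in 8.09% of the 27025 annotated genes with a window. The 8 were Lamp1, Cln3, Mcoln1, Gla, Glb1, Gaa, Naglu and Sgsh. TCACGTGA occurred in 3 of the 32 (9.38%) and in 1.12% of all such genes. The consensus of 10 bases occurred in Cln3 alone (3.12%) and in 0.37% of all such genes. The 5 stretches below are shown because they hold TCACGTGA or, in Glb1 and Naglu, the only matches among genes that rose with cuprizone in WT. All printed bases of Cln3, Mcoln1 and Gla and 25 of the 26 of Naglu also lie in GENCODE exons of some gene. The Cln3, Mcoln1 and Naglu exon bases lie within the GENCODE bounds of those genes, so they are not upstream of every annotated transcript. The Gla stretch lies upstream of the GENCODE gene, which starts at 134601125 on the minus strand, so its exon bases belong to another gene. Capitals mark TCACGTGA where present and otherwise CACGTG, with 10 bases on each side, 5′ to 3′ on the gene's strand.
Cln3 (chr7:126583341-126583368, minus strand): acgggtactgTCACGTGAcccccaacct
Mcoln1 (chr8:3500463-3500490, plus strand): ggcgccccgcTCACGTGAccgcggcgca
Gla (chrX:134601216-134601243, minus strand): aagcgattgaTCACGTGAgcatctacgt
Glb1 (chr9:114401020-114401045, plus strand): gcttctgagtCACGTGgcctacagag
Naglu (chr11:101070011-101070036, plus strand): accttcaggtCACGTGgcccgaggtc

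In WT Ctrl tissue the 35 levels, which FPKM scales per length, ran from 678 ± 14.6 FPKM (SD, n = 3) for Psap, the precursor of the saposins that present sphingolipids to their enzymes, to 2.84 ± 0.464 FPKM for Sgsh, the heparan sulfate sulfamidase. Lamp1, a main glycoprotein of the lysosomal membrane, followed Psap at 241 ± 37.8 FPKM. Ids, the iduronate sulfatase, stood at 146 ± 8.01 FPKM, the membrane protein gene Laptm4a at 132 ± 2.9 FPKM and the tetraspanin gene Cd63 at 109.9 ± 16.9 FPKM, and the libraries of these 3 genes did not overlap. Below them came Gaa, the glycogen-degrading glucosidase, at 85.4 ± 12.9 FPKM, Smpd1, the acid sphingomyelinase, at 52.1 ± 2.35 FPKM and Ppt1, the palmitoyl-protein thioesterase, at 49.4 ± 2.63 FPKM. Low levels were found for Cln3, a membrane protein lost in Batten disease, at 6.36 ± 0.990 FPKM, for Ctns, the cystine exporter, at 6.17 ± 0.367 FPKM, and for Gla, the alpha-galactosidase, at 4.50 ± 0.756 FPKM. Of the 6 genes that rose most with cuprizone in WT, Hexa ranked 15, Grn 17, Laptm5 18, Cd68 23, Man2b1 24 and Gusb 29 of 35 in WT Ctrl. Cd63, which ranked 5, rose 2.60-fold.

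With cuprizone, 19 of the 35 genes rose in WT and 1, Npc1, fell (limma, adjusted p under 0.05), against 9.08% of all genes tested that rose and 7.81% that fell. The cuprizone libraries lay wholly above the controls in 20 of the 35 and wholly below in 5, against 15.8% and 18.9% of all genes. The median log2 change of the 35 was 0.41, and that of all genes was -0.04. The risen genes were spread over the roles. They included 5 of 7 membrane glycoproteins, 5 of 8 glycosidases, 3 of 3 activators with progranulin, 2 of 5 lipid hydrolases, 2 of 5 glycosaminoglycan enzymes, 1 of 5 transporters and channels, and Tpp1, the tripeptidyl peptidase, which went from 24.9 ± 1.56 to 37.2 ± 4.33 FPKM (log2 change 0.56, adjusted p = 0.0034). Calls were lost for Lamp2, Lipa, Asah1, Psap and Manba without WT Ctrl replicate 3 or WT CPZ replicate 1, and for some of these also without WT Ctrl replicate 1 or 2 or WT CPZ replicate 2 or 3, with a largest adjusted p of 0.0816, 0.084, 0.069, 0.0885 and 0.138. In 8 of the 19 the mean FPKM was at least 2 times that of the control, and in 11 it was less. In bulk tissue, more cells of a type and more RNA per cell cannot be told apart. The summed level of 15 microglia markers moved with these genes, from 287 to 333 FPKM in WT Ctrl to 1070 to 1565 FPKM in WT CPZ. In this list 10 of 15 were higher and none was listed at 0 in any library. The sum was led by C1qa, Tyrobp and Trem2, with means of 73.3, 32.1 and 18.9 FPKM in WT Ctrl and 435, 264 and 141 FPKM in WT CPZ. P2ry12, Tmem119, Siglech and Sall1 were not called, and their groups overlapped. Cx3cr1 was not called either, though its mean went from 24.0 to 59.1 FPKM without overlap (log2 change 1.26, SE 0.85, limma adjusted p = 0.363). Its SE rests on the spread of all 4 groups, including the AHR CKO libraries that stood apart. The 10 astrocyte markers moved too, from 1597 to 1775 FPKM summed in WT Ctrl to 2753 to 3341 FPKM in WT CPZ, with 5 higher and 1 lower. The part of either cell type in the rise was not tested.

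**Figure D1:**
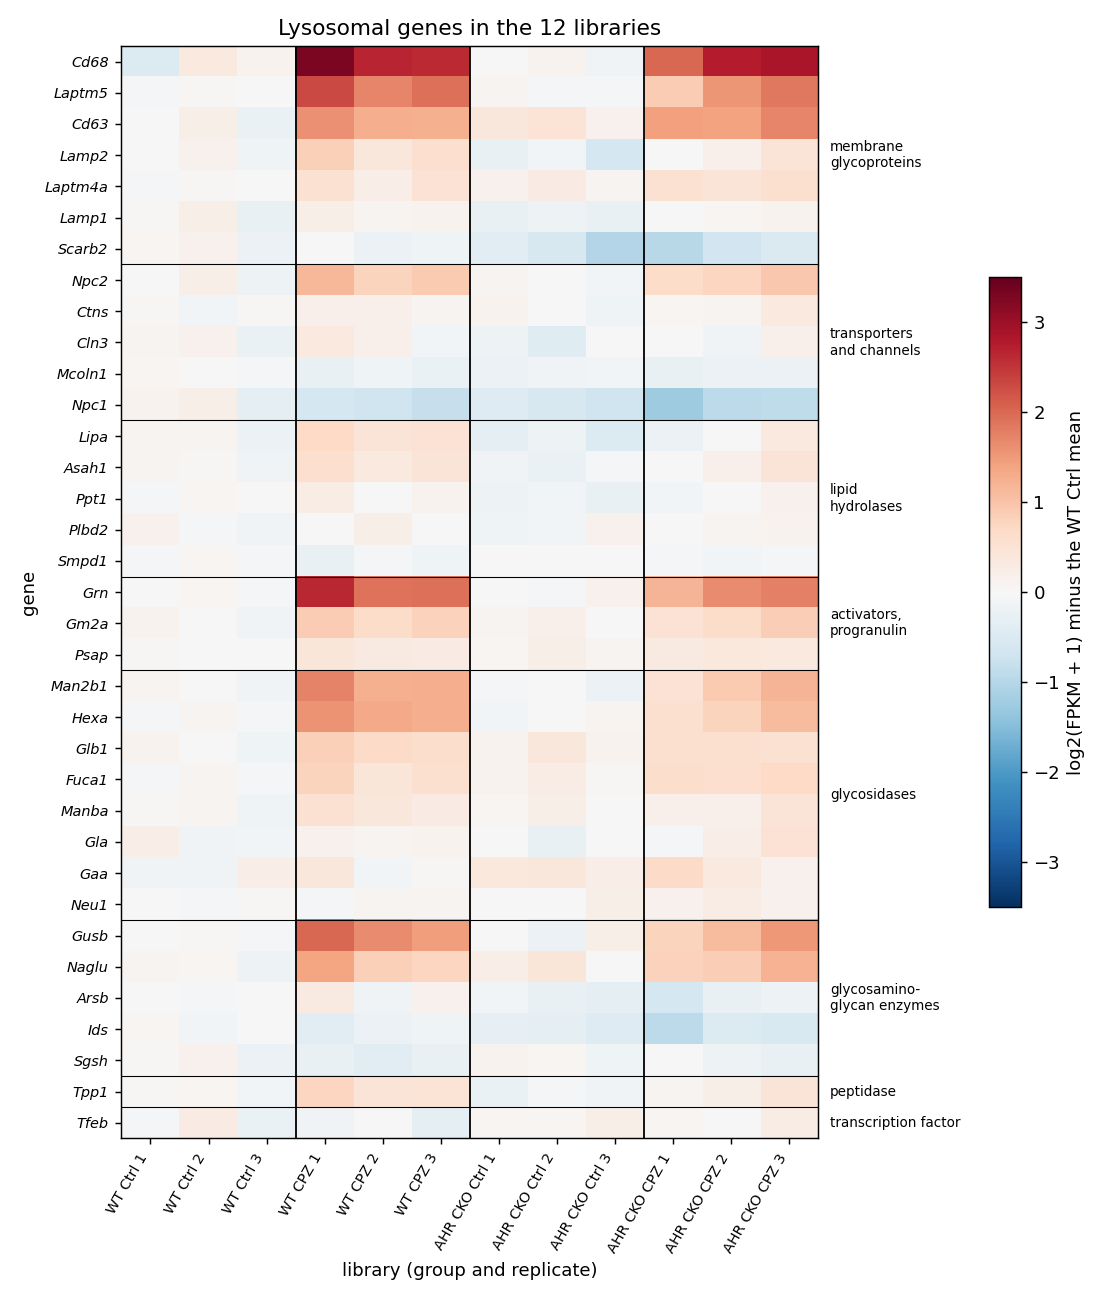
Level of each of the 35 genes (rows, grouped by role) in each of the 12 libraries (columns, by group and replicate), as log2(FPKM + 1) minus the WT Ctrl mean, on a scale from blue (lower) to red (higher). Cd68 is the darkest row in both cuprizone groups, and WT CPZ replicate 1 is the highest of its group in 19 of the 19 genes that rose in WT.

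Among the membrane proteins, Cd68, the macrophage scavenger glycoprotein macrosialin (GRCm38 chromosome 11, 69664213 to 69666153), was 8.94, 16.3 and 14.1 FPKM in WT Ctrl and 133, 86.3 and 83.4 FPKM in WT CPZ. All cuprizone libraries lay far above all controls, with a fold of the means of 7.70 and a log2 change of 2.86 (SE 0.25, adjusted p = 1.27e-05). Laptm5, a lysosomal membrane protein of blood-derived cells and microglia (chromosome 4, 130913125 to 130936141), was 28.2, 29.6 and 29.1 FPKM in WT Ctrl and 148, 96.8 and 113 FPKM in WT CPZ. The control libraries were nearly level, the cuprizone libraries spread widely above them, and the log2 change was 1.98 (SE 0.20, adjusted p = 3.48e-05). Cd63, a tetraspanin of late endosomes and exosomes (chromosome 10, 128900989 to 128912822), was 110.4, 127 and 92.8 FPKM in WT Ctrl and 332, 266 and 260.4 FPKM in WT CPZ, a log2 change of 1.37 (SE 0.14, adjusted p = 3.65e-05) without overlap. Lamp2, the receptor of chaperone-mediated autophagy, rose from 52.6 ± 5.39 to 80.9 ± 12.3 FPKM, and Laptm4a, a small transmembrane protein, rose from 132 ± 2.9 to 178 ± 19.4 FPKM. Lamp1, at 241 ± 37.8 and 263 ± 11 FPKM, did not pass the test (log2 change 0.14, 95% interval -0.10 to 0.37, adjusted p = 0.438). Scarb2, which encodes the receptor LIMP-2, did not pass either, at 46.6 ± 5.92 and 42.5 ± 2.86 FPKM (log2 change -0.12, adjusted p = 0.67).

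Of the activators, Grn, which encodes progranulin, a secreted and lysosomal glycoprotein that keeps several hydrolases working (chromosome 11, 102430315 to 102437048), was 30.6, 31.5 and 28.6 FPKM in WT Ctrl and 193, 116 and 118 FPKM in WT CPZ. The lowest cuprizone library stood well above the highest control, the fold was 4.70 and the log2 change 2.16 (SE 0.19, adjusted p = 1.21e-05). Gm2a, the activator that lifts GM2 ganglioside out of membranes for hexosaminidase A, rose from 20.8 ± 1.86 to 36.6 ± 3.16 FPKM. Psap was 694, 674 and 666 FPKM in WT Ctrl and 902, 849 and 828 FPKM in WT CPZ. These groups did not overlap, but the rise was the smallest of the 19 on the log2 scale, at 0.34 (SE 0.09, adjusted p = 0.0229), and the call ended with quantile normalization (adjusted p = 0.476) and with only the groups compared.

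Among the glycosidases, Hexa, the alpha subunit of hexosaminidase A that removes the terminal sugar of GM2 ganglioside (chromosome 9, 59539540 to 59565109), was 31.1, 34.0 and 31.0 FPKM in WT Ctrl and 97.7, 81.1 and 78.6 FPKM in WT CPZ. The groups were widely separated, with a log2 change of 1.39 (SE 0.13, adjusted p = 2.04e-05). Exons of Tmem202 on the opposite strand share 12.8% of the exon bases of Hexa, and since the sources used here do not say whether counting used strand, their reads cannot be told apart. Man2b1, the lysosomal alpha-mannosidase of glycoprotein turnover (chromosome 8, 85083270 to 85098282), was 13.7, 12.7 and 11.6 FPKM in WT Ctrl and 44.6, 31.4 and 31.8 FPKM in WT CPZ, a log2 change of 1.42 (SE 0.17, adjusted p = 9.79e-05). Its cuprizone libraries all exceeded the controls. Glb1, the beta-galactosidase that acts on GM1 ganglioside and one of the genes with CACGTG printed above, was 9.44, 8.61 and 7.53 FPKM in WT Ctrl and 15.9, 14.1 and 13.6 FPKM in WT CPZ (log2 change 0.71, SE 0.11, adjusted p = 0.000536). Fuca1, the fucosidase, rose from 18.8 ± 1.27 to 29.1 ± 3.70 FPKM. Manba, the beta-mannosidase, was 3.44, 3.64 and 2.89 FPKM in WT Ctrl and 5.27, 4.63 and 4.29 FPKM in WT CPZ, a smaller change of 0.41 on the log2 scale (SE 0.12, adjusted p = 0.0349) that did not pass with TPM or only the groups compared (adjusted p of at most 0.0686). Gaa, Gla and Neu1, the sialidase, did not pass, with Neu1 at 12.6 ± 0.292 and 13 ± 0.950 FPKM.

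The glycosaminoglycan enzymes split. Gusb, the beta-glucuronidase (chromosome 5, 129989011 to 130003049), was 6.63, 6.83 and 6.44 FPKM in WT Ctrl and 29.9, 23.0 and 20.1 FPKM in WT CPZ. The controls agreed to within a fraction of 1 FPKM and every cuprizone library was far higher, giving a fold of 3.67 and a log2 change of 1.71 (SE 0.18, adjusted p = 4.36e-05). Naglu, the N-acetylglucosaminidase of heparan sulfate, whose window also holds CACGTG, rose from 5.83 ± 0.670 to 12.8 ± 3.37 FPKM. The sulfatases and the sulfamidase did not pass the test: Ids stood at 146 ± 8.01 and 122 ± 10.7 FPKM, Sgsh at 2.84 ± 0.464 and 2.10 ± 0.178 FPKM, and Arsb, which removes sulfate from dermatan and chondroitin chains, at 45.4 ± 1.23 and 49.6 ± 7.22 FPKM. For Ids and Sgsh the cuprizone libraries all lay below the controls. Other genes share 39.9% of the exon bases of Arsb and 21.6% of those of Sgsh, on the opposite strand.

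Of the enzymes that degrade lipids, Lipa, the acid lipase that frees cholesterol from its esters, was 10.7, 10.7 and 8.41 FPKM in WT Ctrl and 16.6, 13.9 and 14.5 FPKM in WT CPZ. Its groups did not overlap and the log2 change was 0.55 (SE 0.15, adjusted p = 0.0203). Asah1, the acid ceramidase, was 33.0, 31.7 and 28.4 FPKM in WT Ctrl and 47.5, 39.4 and 42.5 FPKM in WT CPZ, again without overlap (log2 change 0.46, SE 0.11, adjusted p = 0.0153). Smpd1, Ppt1 and Plbd2, a phospholipase B-like protein, did not pass, and Plbd2 was nearly level at 26.4 ± 2.55 and 28.0 ± 2.18 FPKM.

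The partners that hand cholesterol out of the lysosome moved in opposite directions in WT. Npc2, the soluble protein that binds cholesterol, rose from 33.2 ± 4.74 to 65.4 ± 9.42 FPKM (log2 change 0.96, SE 0.13, adjusted p = 0.000211). Npc1, the membrane protein that receives it, was 37.7, 40.3 and 27.5 FPKM in WT Ctrl and 22.2, 21.1 and 19.6 FPKM in WT CPZ. Every cuprizone library of Npc1 lay below every control, a fall to a mean 1.68-fold lower (log2 change -0.70, SE 0.14, adjusted p = 0.00376). The 12 oligodendrocyte markers fell in the same libraries, and their part in the fall of Npc1 was not tested. Mcoln1, the calcium channel TRPML1, had cuprizone libraries below all controls at 36.1 ± 1.98 and 31.0 ± 1.38 FPKM but did not pass (log2 change -0.21, adjusted p = 0.0656). Ctns and Cln3 did not pass either.

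Tfeb itself was 9.68, 12.6 and 8.55 FPKM in WT Ctrl, 9.32, 10.2 and 7.74 FPKM in WT CPZ, 10.6, 10.6 and 11.8 FPKM in AHR CKO Ctrl and 10.6, 9.94 and 12.4 FPKM in AHR CKO CPZ. All 4 groups overlapped with the group they were compared with. The log2 change with cuprizone was -0.15 in WT (95% interval -0.45 to 0.15, adjusted p = 0.515) and -0.0055 in AHR CKO (-0.31 to 0.29, adjusted p = 0.987). Of the 8 genes with CACGTG in their window, 2 rose in WT and 6 were not called, against 19 and 15 of the 35. Of all genes tested, 9.08% rose. None of the 6 genes with the largest rises (Cd68, Grn, Laptm5, Gusb, Man2b1 and Hexa) has those letters in its window, against 8 of the 32 with a window. Only exact matches in these windows were searched, and RNA does not measure the activity of the Tfeb protein. The part of Tfeb in the rise was not tested.

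**Figure D2:**
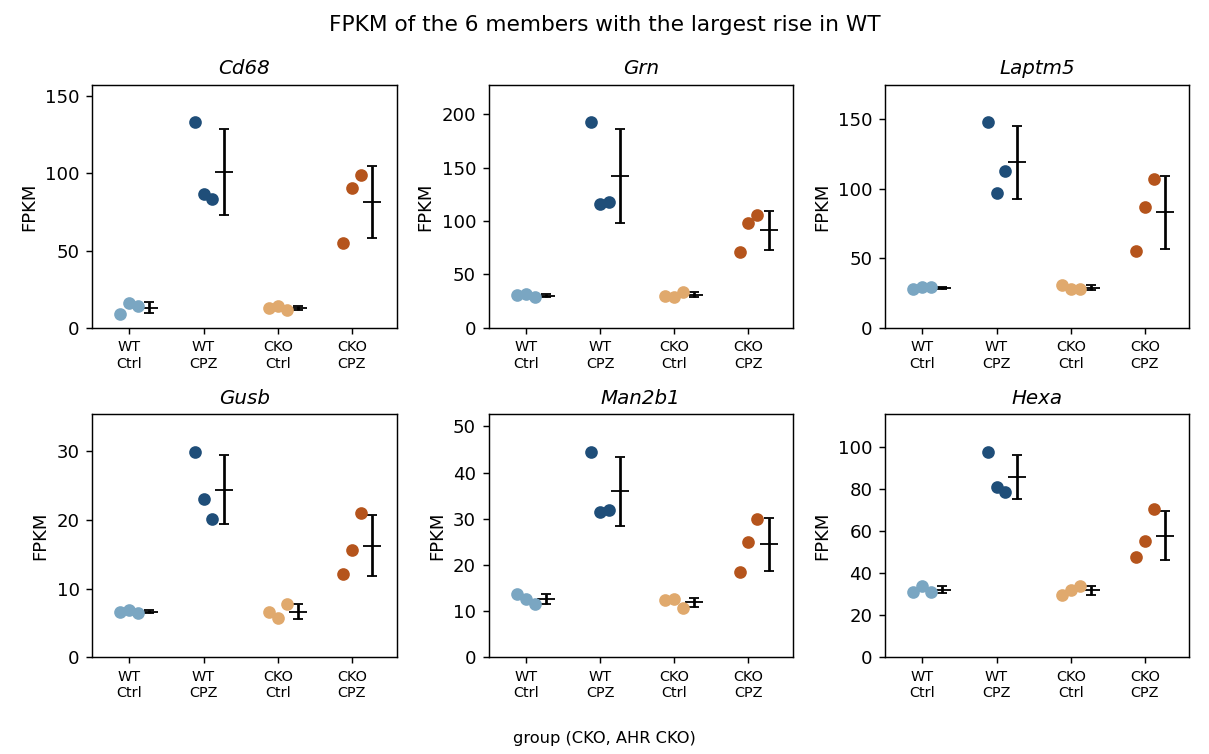
FPKM of Cd68, Grn, Laptm5, Gusb, Man2b1 and Hexa, 1 panel each, with the 3 libraries of each group as points and the group mean ± SD beside them (CKO stands for AHR CKO, and each axis starts at 0). In all 6 panels the cuprizone libraries of both genotypes lie above all controls, and AHR CKO CPZ replicate 1 is the lowest of its group.

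In AHR CKO, 14 of the 35 genes rose with cuprizone and none passed the limma test as lower, against 7.22% and 2.98% of all genes. At an unadjusted p under 0.05, 20 genes were higher and 2, Npc1 and Ids, lower, against 13.1% and 11.1% of all genes. Groups were apart with cuprizone higher in 19 and lower in 3, against 14.3% and 14.6% of all genes. The median log2 change was 0.33, and that of all genes -0.01. All 14 were among the 19 that rose in WT. Calls were lost for Lamp2, Laptm4a and Naglu without AHR CKO Ctrl replicate 1 or 3 or AHR CKO CPZ replicate 3, for Tpp1 without these or AHR CKO Ctrl replicate 2, and for all but Naglu without AHR CKO CPZ replicate 2, with a largest adjusted p of 0.155, 0.111, 0.0711 and 0.151. Lamp2 and Tpp1 also lost theirs without WT Ctrl replicate 1 or 2 or WT CPZ replicate 3, and Laptm4a without AHR CKO CPZ replicate 1. The microglia markers summed to 260 to 288 FPKM in AHR CKO Ctrl and 706 to 1112 FPKM in AHR CKO CPZ, with 7 of 15 higher. The astrocyte markers summed to 1596 to 1632 and 2383 to 3096 FPKM, with 5 of 10 higher, and the part of both was again not tested. Rescaling moved the balance of calls over all genes in this comparison: 70.78% of called genes were higher as deposited, 58.99% after rescaling to a common total and 60.1% after quantile normalization, with 11 and 12 of the 35 genes then higher.

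Cd68 was 12.7, 13.9 and 11.7 FPKM in AHR CKO Ctrl and 54.8, 90.7 and 98.7 FPKM in AHR CKO CPZ, a fold of 6.38 (log2 change 2.54, SE 0.25, adjusted p = 5.42e-05). Grn was 30.2, 29.0 and 33.6 FPKM without and 70.8, 98.0 and 105 FPKM with cuprizone, a fold of 2.95 (log2 change 1.51, SE 0.19, adjusted p = 0.000239). In both genes the spread lay almost wholly among the cuprizone libraries, with replicate 1 lowest. Laptm5 was 30.8, 27.9 and 27.6 FPKM without and 54.9, 87.1 and 107 FPKM with cuprizone (log2 change 1.45, SE 0.20, adjusted p = 0.000588). Cd63 was 144, 153 and 122 FPKM without and 296, 289.9 and 358 FPKM with cuprizone (log2 change 1.17, SE 0.14, adjusted p = 0.000227). Neither gene's groups overlapped. Gusb was 6.54, 5.65 and 7.74 FPKM without and 12.2, 15.5 and 21 FPKM with cuprizone (log2 change 1.15, SE 0.18, adjusted p = 0.00131). Man2b1 was 12.4, 12.7 and 10.8 FPKM without and 18.5, 24.9 and 30.0 FPKM with cuprizone (log2 change 0.95, SE 0.17, adjusted p = 0.0029). These hydrolase genes also kept every cuprizone library above every control. Hexa rose 1.81-fold, Naglu 1.77-fold, Npc2 1.73-fold, Gm2a 1.51-fold, Lamp2 1.46-fold, Fuca1 1.42-fold, Tpp1 1.33-fold and Laptm4a 1.27-fold.

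The genes called in WT and not in AHR CKO were Glb1, Asah1, Lipa, Psap, Manba and, as the fallen one, Npc1. Glb1 was 9.38, 11.6 and 9.38 FPKM in AHR CKO Ctrl and 12.9, 13 and 12.8 FPKM in AHR CKO CPZ (log2 change 0.33, adjusted p = 0.0742). Its groups did not overlap here either. Psap was 717, 775 and 723 FPKM without and 842, 879 and 867 FPKM with cuprizone (log2 change 0.23, adjusted p = 0.155), and Asah1 was 28.2, 26.2 and 29.3 FPKM without and 31.0, 35.3 and 42.7 FPKM with it (log2 change 0.36, adjusted p = 0.072). Npc1 was 25.1, 23.1 and 21.2 FPKM without and 14.2, 18.1 and 18.1 FPKM with cuprizone (log2 change -0.44, adjusted p = 0.0656). For Psap, Asah1 and Npc1, too, the AHR CKO groups did not overlap. Lipa was 7.77, 8.71 and 6.82 FPKM without and 8.49, 9.85 and 12.8 FPKM with cuprizone (log2 change 0.36, adjusted p = 0.147). Manba was 3.5, 3.97 and 3.35 FPKM without and 3.92, 3.83 and 4.88 FPKM with cuprizone (log2 change 0.17, adjusted p = 0.416). In Lipa and Manba the groups overlapped.

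**Figure D3:**
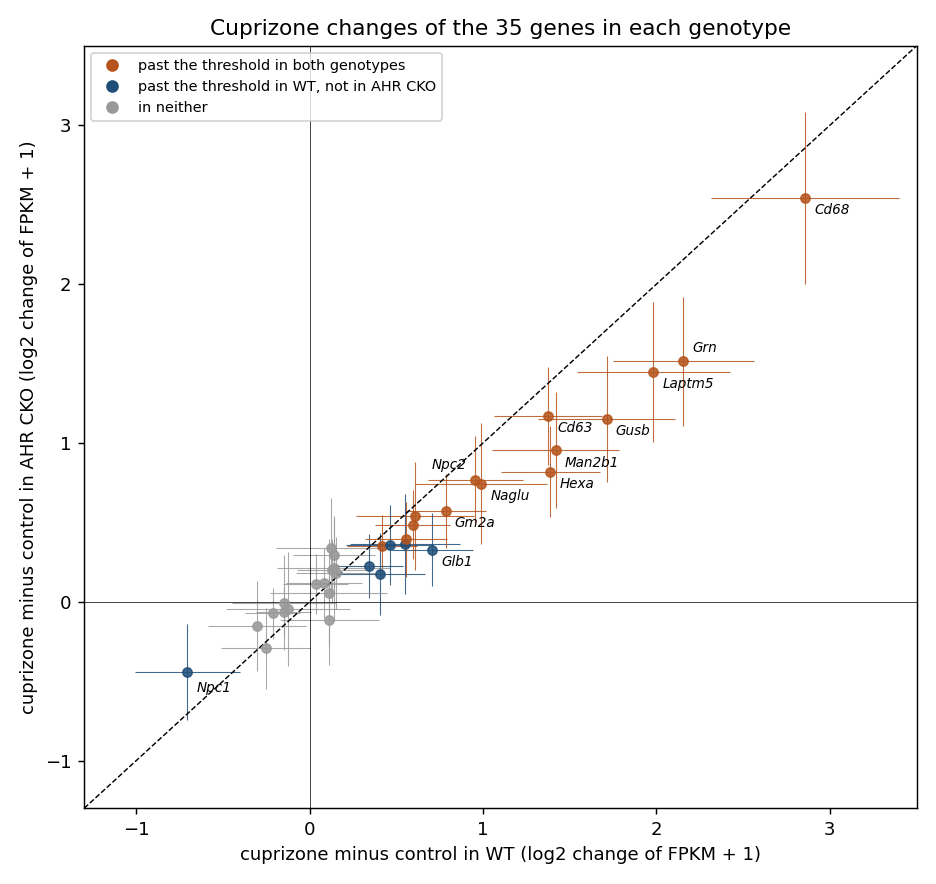
Log2 change of FPKM + 1 with cuprizone in WT (horizontal axis) and in AHR CKO (vertical axis) for the 35 genes, with 95% intervals and a dashed line of equal change. Genes past the threshold in both genotypes are orange, those past it in WT but not in AHR CKO are blue, the rest are grey, and names are given where the WT change is at least 0.65 in either direction. Cd68 lies farthest out, at 2.86 and 2.54, and the named risen genes lie below the line.

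Whether the cuprizone change itself differed between the genotypes was tested by the interaction. None of the 35 genes passed (limma), and 0.0363% of all genes did, 5 of 13759, with 0.0145% higher and 0.0218% lower. Over all genes, leaving out WT Ctrl replicate 3 gave 96 higher and 7 lower, leaving out WT CPZ replicate 2 gave 10 and 28, and leaving out any other library gave at most 1 and 3. At an unadjusted p under 0.05, 4 of the 35 (Hexa, Glb1, Grn and Gusb) had a smaller change in AHR CKO and none a larger one, while 3.34% of all genes were negative and 6.22% positive at that p. The estimate was negative in 22 of the 35 (62.9%) and in 44.7% of all genes, with a median of -0.10 for the 35 and 0.03 for all genes. The smallest p-values were those of Hexa at -0.57 (SE 0.19, adjusted p = 0.338), Glb1 at -0.38 (SE 0.15, adjusted p = 0.438) and Grn at -0.64 (SE 0.26, adjusted p = 0.465). The intervals were wide: that of Grn ran from -1.21 to -0.07 and that of Cd68 from -1.08 to 0.45. That 6 genes were called in WT and not in AHR CKO is thus not shown to be a difference between the genotypes.

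Under cuprizone, 8 of the 35 genes were lower in AHR CKO than in WT (22.9%) and none was higher at an adjusted or an unadjusted p under 0.05 (limma), against 10.8% of all genes lower, 9.14% higher and 20% in either direction. At the unadjusted p, 12 were lower, against 18.9% of all genes lower and 18.3% higher. The AHR CKO libraries lay wholly below those of WT in 10 of the 35 and wholly above in 1, against 20% and 18.9% of all genes. The median log2 difference of the 35 was -0.13, and that of all genes 0.002. The 8 were Hexa, Arsb, Scarb2, Lipa, Grn, Ids, Man2b1 and Gusb, with folds of 1.30 to 1.56. Of these, 5 had also risen in WT, a comparison that shares the WT CPZ libraries, and Arsb, Scarb2 and Ids had not been called there. The 15 microglia markers, Cx3cr1 among them, were all at a negative difference, with 5 called lower and a median of -0.51. Of the 12 oligodendrocyte markers, 11 were at a positive difference, with 3 called higher and a median of 0.42. These summed to 4251 to 5286 FPKM in AHR CKO CPZ and 3191 to 3864 FPKM in WT CPZ. The part of either cell type in these differences was not tested.

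Hexa had the smallest p of the 8: its AHR CKO CPZ libraries held 47.5, 55.2 and 70.5 FPKM, all below the 97.7, 81.1 and 78.6 FPKM of WT CPZ (log2 difference -0.58, 95% interval -0.86 to -0.29, adjusted p = 0.014). Arsb was 29.1, 37.6 and 40.3 FPKM in AHR CKO CPZ and 56.2, 41.9 and 50.7 FPKM in WT CPZ (-0.47, interval -0.75 to -0.18, adjusted p = 0.0282). The 2 groups of Arsb came close but did not overlap. Scarb2, whose product carries glucocerebrosidase to the lysosome (chromosome 5, 92441314 to 92506833), was 23.2, 29.0 and 32.5 FPKM in AHR CKO CPZ and 45.6, 39.97 and 41.9 FPKM in WT CPZ (-0.58, interval -0.94 to -0.23, adjusted p = 0.0293). Lipa was 8.49, 9.85 and 12.8 FPKM against 16.6, 13.9 and 14.5 FPKM (-0.51, interval -0.82 to -0.19, adjusted p = 0.031). Both genes' groups were apart.

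Grn was 70.8, 98.0 and 105 FPKM in AHR CKO CPZ and 193, 116 and 118 FPKM in WT CPZ (-0.61, interval -1.01 to -0.21, adjusted p = 0.0385). Ids was 76.6, 104 and 100.8 FPKM in AHR CKO CPZ and 110.4, 125 and 131 FPKM in WT CPZ (-0.39, interval -0.64 to -0.13, adjusted p = 0.0395). The nearest libraries of the groups lay close together in both genes. Man2b1 was 18.5, 24.9 and 30.0 FPKM against 44.6, 31.4 and 31.8 FPKM (-0.54, interval -0.91 to -0.18, adjusted p = 0.0408). Gusb was 12.2, 15.5 and 21 FPKM against 29.9, 23.0 and 20.1 FPKM (-0.57, interval -0.96 to -0.17, adjusted p = 0.0451), and its groups overlapped. Among the genes not called, Cd68 had a difference of -0.32 (interval -0.86 to 0.23, adjusted p = 0.37), Laptm5 of -0.55 (interval -0.99 to -0.10, adjusted p = 0.0745) and Tfeb of 0.25 (interval -0.05 to 0.55, adjusted p = 0.206). For Psap the difference was 0.0060, with an interval of -0.19 to 0.21.

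These calls changed with single libraries, as did those of all genes. WT CPZ replicate 1 was the highest of its group in 28 of the 35 genes, and AHR CKO CPZ replicate 1 the lowest of its group in 24, while AHR CKO CPZ replicate 3 was the highest in 29. The summed microglia markers had the same order within these groups, at 1565, 1070 and 1177 FPKM in WT CPZ and 706, 933 and 1112 FPKM in AHR CKO CPZ. Cx3cr1, itself in that list, was 1.16, 22.7 and 29.6 FPKM in AHR CKO CPZ. The choroid plexus markers summed to 2989, 57.4 and 987 FPKM in WT CPZ and 3742, 1011 and 2836 FPKM in AHR CKO CPZ. The part of any of these was not tested. Of the 35 genes, none was called lower without WT CPZ replicate 1 or without AHR CKO CPZ replicate 1, 1 without WT CPZ replicate 3, 2 without AHR CKO CPZ replicate 2, and 12 without AHR CKO CPZ replicate 3. Over all genes the lower calls moved as well, from 1490 to 683 and 454 without those first libraries, to 698 without WT CPZ replicate 3, to 888 without AHR CKO CPZ replicate 2 and to 1838 without AHR CKO CPZ replicate 3. Leaving out a control library, which bears on this comparison through the shared estimate of the spread, left 4 without WT Ctrl replicate 1, AHR CKO Ctrl replicate 1 or AHR CKO Ctrl replicate 2, and 5 without WT Ctrl replicate 2. A fit to the 6 cuprizone libraries alone called 1. Rescaling to a common total moved the median of all genes in this comparison from 0.002 to -0.12 and the higher share of all calls from 45.76% to 21.22%. The 8 were still called, at differences that relative to that shift ran from -0.40 for Ids to -0.62 for Grn, and 10 of the 35 were then called.

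**Figure D4:**
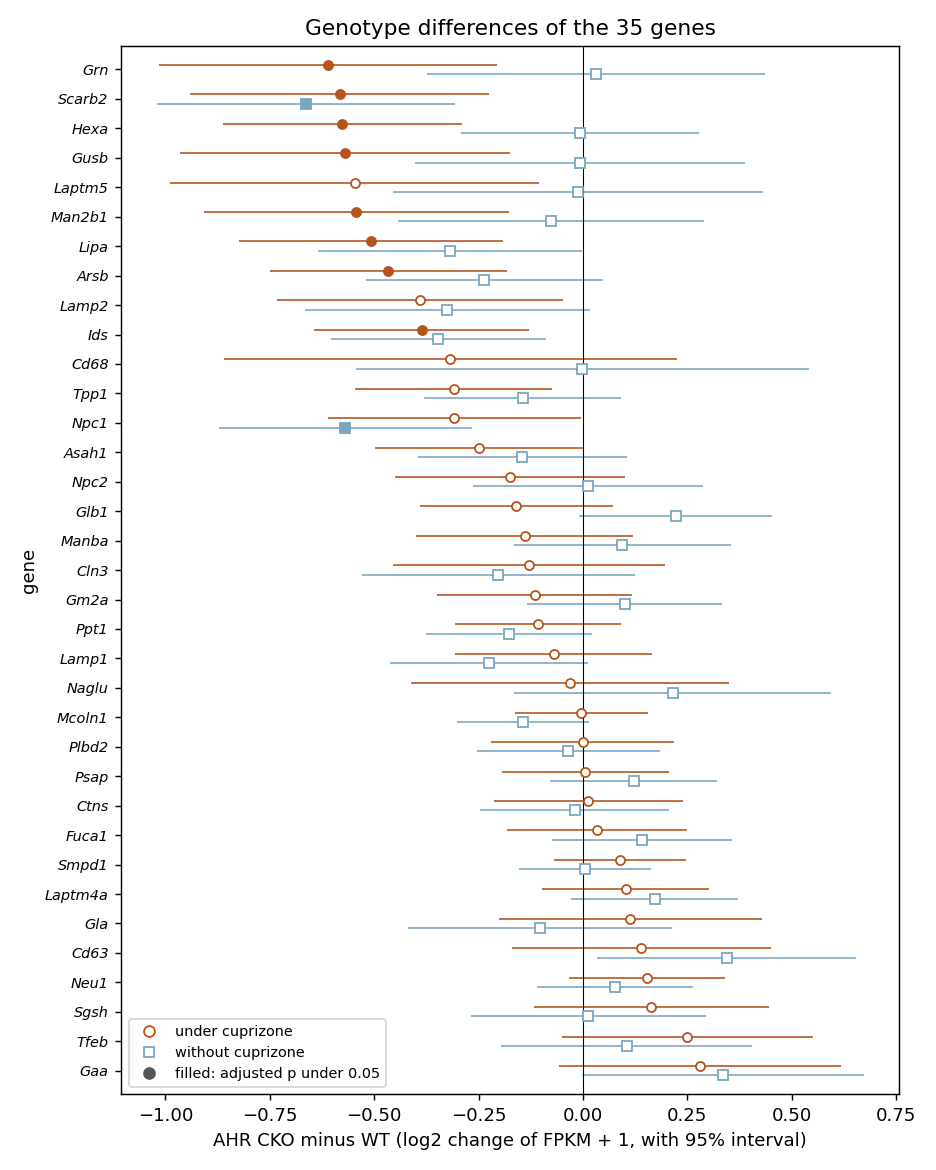
AHR CKO minus WT as log2 change of FPKM + 1, with 95% intervals, for the 35 genes under cuprizone (orange circles) and without it (blue squares), with filled symbols for an adjusted p under 0.05. There are 8 filled circles and 2 filled squares, all on the negative side, and Scarb2 is the only gene with both.

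Without cuprizone, 2 of the 35 genes were lower in AHR CKO and none was higher (limma), against 4.76% and 1.42% of all genes, or 6.19% in either direction. Groups were apart with AHR CKO lower in 6 of the 35 and higher in 3, against 21.9% and 13.5% of all genes. At an unadjusted p under 0.05, 1 gene, Cd63, was higher and 4 (Scarb2, Npc1, Lipa and Ids) lower, against 10.2% and 17.4% of all genes. The median difference was -0.01 and that of all genes -0.03. Npc1 was 25.1, 23.1 and 21.2 FPKM in AHR CKO Ctrl and 37.7, 40.3 and 27.5 FPKM in WT Ctrl, a mean 1.52-fold lower (log2 difference -0.57, SE 0.14, adjusted p = 0.0395). Scarb2 was 35.2, 31.0 and 22.1 FPKM in AHR CKO Ctrl and 48.7, 51.2 and 39.9 FPKM in WT Ctrl, a mean 1.58-fold lower (log2 difference -0.66, SE 0.16, adjusted p = 0.0412). Neither gene's groups overlapped. Scarb2 was the 1 gene lower in AHR CKO in both treatments. The oligodendrocyte markers summed to 9911 to 10609 FPKM in AHR CKO Ctrl, with 3 of 12 lower than in WT Ctrl. The choroid plexus markers summed to 43.5 to 156 FPKM in WT Ctrl and 416 to 3585 FPKM in AHR CKO Ctrl, with 6 of 6 differences positive (median log2 difference 1.85) and none called. The part of these tissues in the differences was not tested. Neither gene was called without WT Ctrl replicate 1 or 2, WT CPZ replicate 3, AHR CKO Ctrl replicate 2 or 3, or AHR CKO CPZ replicate 2, nor in a fit to the 6 control libraries alone. Over all genes the lower calls likewise went from 655 to 1 to 3 without WT Ctrl replicate 1 or 2 or AHR CKO Ctrl replicate 2 or 3, to 138 without WT CPZ replicate 3 and to 198 without AHR CKO CPZ replicate 2, and the higher calls from 196 to between 3 and 60. Without AHR CKO CPZ replicate 1 there were 400 higher and 1031 lower. Cd68 and Hexa, high with cuprizone, were level here, at differences of -0.0012 (interval -0.54 to 0.54) and -0.0064 (interval -0.29 to 0.28).

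**Figure D5:**
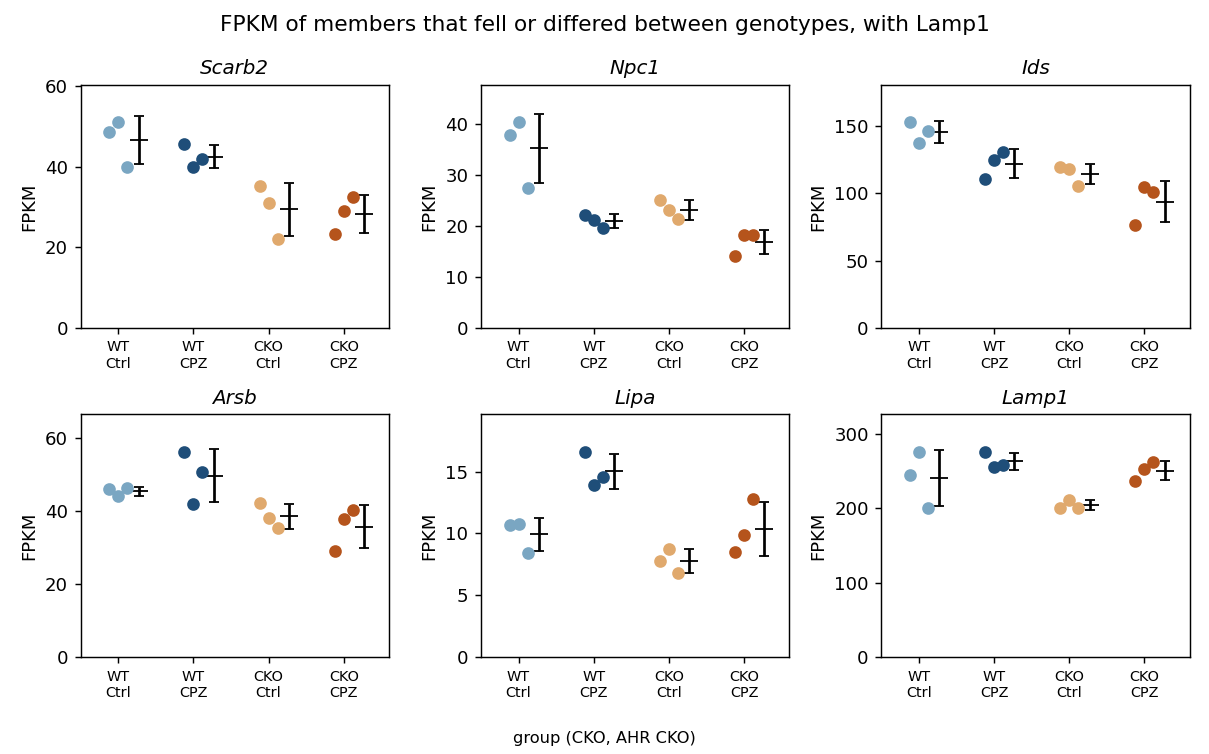
FPKM of Scarb2, Npc1, Ids, Arsb, Lipa and Lamp1, 1 panel each, with the 3 libraries of each group as points and the group mean ± SD beside them (CKO stands for AHR CKO, and each axis starts at 0). Scarb2 is lower in AHR CKO in both treatments, Npc1 falls with cuprizone in WT, and the Lamp1 groups of the 2 genotypes overlap in each treatment.

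Other lysosomal genes were described from a separate list of 41 hydrolases, membrane proteins, sorting factors and regulators such as Tfe3 and Flcn, 39 of them tested. With cuprizone 9 rose and 4 fell in WT (23.1% and 10.3%), against 9.08% and 7.81% of all genes. In AHR CKO 11 rose and 1 fell (28.2% and 2.56%), against 7.22% and 2.98% of all genes. Under cuprizone 2 were higher and 3 lower in AHR CKO than in WT (5.13% and 7.69%), below the 9.14% and 10.8% of all genes. Dnase2a, which degrades DNA in lysosomes, rose from 2.23 to 9.19 FPKM in WT (adjusted p = 0.000318), whereas Abca2, a lysosomal lipid transporter abundant in oligodendrocytes, fell from 86.9 to 33.2 FPKM (adjusted p = 1.44e-05). Of 29 tested cathepsin and proton pump genes, 9 rose and 3 fell in WT (31% and 10.3%). In AHR CKO 9 rose and 1 fell (31% and 3.45%). Under cuprizone 3 of these were higher and 3 lower in AHR CKO than in WT (10.3% each). The shares of all genes are those given above.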

How the data were processed

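The authors deposited 1 table of FPKM values for 12 libraries, per the file headers. RNA was taken from corpus callosum with a Qiagen RNeasy kit and made into libraries with a SMARTER kit, per the labels' protocols, and the builds named are GRCm38 and mm10, per the submitters' processing notes. The sources used here do not give the aligner, quantifier, annotation or use of strand. Depth was estimated from the steps of FPKM times transcript length among the lowest values, in a range that itself bounds the answer. Up to 2.5 steps, 72.7% to 90% of values were within 0.2 steps of a whole number, where an even spread gives 40%. The step was the median of some of these same values, so this share does not check the depth. No count test was run.

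The filter kept genes that reached 1 FPKM in 3 or more of the 12 libraries (13759 of 15584, 88.29%). A limma 3.58.1 fit (R 4.3.3, eBayes with trend) of log2(FPKM + 1), a scale that understates changes of low genes, used all 4 groups. P-values are two-sided and adjusted by Benjamini-Hochberg over all genes of a comparison, with a threshold of 0.05. An exact permutation test of 3 against 3 libraries cannot go below 0.1. Folds are ratios of mean FPKM. The pipeline was tested on simulated data.

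The 35 genes, the other lists and the tests were chosen with earlier results of these data known. Full values are given for the 6 largest rises and up to 4 falls per cuprizone comparison, calls in 1 genotype only, calls between genotypes (or the 3 smallest p) and Tfeb. Positions are from GENCODE M21. The result for 1 gene of another list is not reported here. The alternatives tried were TPM, a pseudocount of 0.1, a minimum mean of 5 FPKM, no filter, median-of-ratios scaling, quantile normalization, a replicate block, only the groups compared, and leaving out each library.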

Additional observations from a re-analysis of the deposited data

How the results depend on the processing

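With cuprizone in WT, the count of higher genes was 14 to 19 when 1 library was left out and that of lower genes 1 (2 with quantile normalization), and 15 of the 20 calls held under every alternative and without each library. In AHR CKO the counts were 10 to 15 higher and 0 to 1 lower (1 without WT Ctrl replicate 3), and 10 of 14 calls held throughout. None of the calls between genotypes did: without 1 library the lower genes numbered 0 to 12 under cuprizone and 0 to 3 without it, while the lower calls over all genes ran from 454 to 1838 and from 1 to 1031. The WT calls of Psap and Manba ended with the replicate block. The lower genes between genotypes then numbered 2 and 0, and with only the groups compared 1 and 0. Deviations of same-numbered libraries correlated at -0.26 to 0.24, and a library matched its own number best in 4 of 24 comparisons. With 3 libraries per group this cannot decide whether the replicate numbers pair the libraries. The replicate block also cut the calls over all genes from 196 higher and 655 lower to 18 and 33 without cuprizone, from 410 to 273 lower with cuprizone in AHR CKO, from 1257 to 786 higher under cuprizone, and from 2 and 3 to 0 in the interaction. No filter left 0 and 1 in the interaction, and 128 higher without cuprizone. Only the groups compared gave 459 and 611 under cuprizone and 52 and 75 without. TPM gave 627 higher and 2328 lower under cuprizone, and a mean FPKM of at least 5 gave 757 higher genes with cuprizone in WT and 573 in AHR CKO. Tfeb, called nowhere, changed sign: its change in AHR CKO ran from -0.089 to 0.058 and its difference without cuprizone from -0.0058 to 0.25 when 1 library was left out. The causes were not tested. The intervals given rest on 1 estimate of the spread per gene, shared by the 4 groups of 3 libraries.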
